A study of Rattus norvegicus with 43 samples.

Results

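The genes of cholesterol synthesis, sterol sensing and lipoprotein uptake were followed in anterior pituitaries from 43 male rats. The list held 34 genes of the 14217 named on the array, and each gene was read from its brightest probe set annotated to that gene alone. A probe set of this kind was found for 32 of the 34 genes, and Hmgcs1 and Npc1 have no value. Of these 32 genes, 28 passed a filter that kept probe sets with a mean log2 level above the median of all probe sets. Mvd, Hsd17b7, Scarb1 and Scd did not pass. The list was made with earlier results of these arrays in view, and Tmem97 and Vldlr were chosen by their measured rise with mitotic genes in these same arrays, so their relation to those genes is given as a description only.

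The animals were males of the F2 generation of a COPxACI intercross between Copenhagen and ACI rats. Every animal carried an implant of 5 mg of diethylstilbestrol (DES), a synthetic estrogen, from week 9 of age for 12 weeks, received 50 mg/kg of the thymidine analog BrdU 4 hours before death, and was killed at week 21. No untreated animal was among the arrays, so nothing below is a response to DES. Per the design text, animals were taken from both extremes of pituitary weight (22 heavy and 21 light glands), but no label gives the class of an animal, and all 43 arrays form 1 group. Each array holds a different animal, named here by the number in their labels.

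Cells make cholesterol from acetyl-CoA through mevalonate, farnesyl diphosphate, squalene and lanosterol, or take it up in lipoproteins. When sterol in the endoplasmic reticulum is low, SCAP carries the SREBP transcription factors to the Golgi, where they are cut and released to switch on the enzymes and uptake receptors, and when sterol is high the INSIG proteins hold SCAP back. The liver X receptors respond to oxidised sterols and switch on export. Dividing cells need sterol for new membrane, and hormone-secreting cells for their granules.

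Stretches of promoter are shown for the genes on which the results below turn, to let the letters around the start sites be compared. Each holds the 150 bases before the RefSeq start in assembly GRCr8, 5′ to 3′ on the strand of the gene, with CCAAT boxes (CCAAT) and GC boxes (GGGCGG), on either strand, in capitals.
Tmem97, chr10:63945360-63945509, minus strand: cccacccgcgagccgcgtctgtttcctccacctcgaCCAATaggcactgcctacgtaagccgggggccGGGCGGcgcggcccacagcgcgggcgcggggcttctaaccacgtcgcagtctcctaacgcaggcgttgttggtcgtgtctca
Vldlr, chr1:234240536-234240685, plus strand: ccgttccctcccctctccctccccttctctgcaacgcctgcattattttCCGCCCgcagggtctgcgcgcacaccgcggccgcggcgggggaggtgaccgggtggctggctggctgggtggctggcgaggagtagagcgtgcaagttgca
Cyp51, chr4:30991543-30991692, plus strand: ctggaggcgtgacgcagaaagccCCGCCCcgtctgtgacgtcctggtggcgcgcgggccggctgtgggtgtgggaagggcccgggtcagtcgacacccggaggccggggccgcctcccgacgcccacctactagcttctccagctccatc
Idi1, chr17:66547525-66547674, minus strand: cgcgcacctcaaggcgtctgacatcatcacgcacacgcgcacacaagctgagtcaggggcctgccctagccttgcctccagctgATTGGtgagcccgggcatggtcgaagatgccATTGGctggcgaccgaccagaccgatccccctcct
Insig1, chr4:8057770-8057919, minus strand: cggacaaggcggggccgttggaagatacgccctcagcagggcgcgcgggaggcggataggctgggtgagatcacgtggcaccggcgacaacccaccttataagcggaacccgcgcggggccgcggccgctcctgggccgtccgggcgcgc
The Tmem97 stretch held 1 CCAAT box and 1 GC box, those of Vldlr and Cyp51 held 1 GC box each, that of Idi1 held 2 CCAAT boxes, and that of Insig1 held neither.

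Windows from 250 bases before to 50 bases after the start were found for 27 of the 34 genes. They were set against 8821 windows of genes with a tested probe set, which include listed genes. The 27 also hold Hmgcs1, Npc1, Mvd, Hsd17b7 and Scd, which have no tested probe set. A CCAAT box was present in 18 of the 27 windows (66.7%), against 37.8% of the 8821. A GC box was present in 21 of the 27 (77.8%), against 62.9%. The sterol element searched, TCACNCCAC, was in 0 of the 27 windows, against 0.998%. The cell cycle homology region TTTGAA was in 2 windows (7.41%, Mvk and Idi1), against 11.3%. These are matches of letters on either strand within these windows and do not show binding, and letters shared by overlapping motifs counted for each of them.

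Prl, the hormone of lactotrophs, had a median intensity of 50863, Gh1, growth hormone, of 32531 and Cga, the common subunit of the glycoprotein hormones, of 32378, so the labelled tissue carried its defining hormones. Pomc, the corticotroph hormone precursor, did not pass the filter. In whole tissue, fewer cells of a type and less RNA per cell cannot be told apart, which holds for every level below. The array of animal 43 stood apart: its 3′ minus 5′ difference for actin was 1.97 in log2 units (1.26 to 1.67 on the others). Its mean correlation with the other arrays was 0.927 (0.967 to 0.976 for the others). Animal 43 had the lowest value for 11 of the 28 genes (39.3%), against 25.4% of all tested probe sets. Animal 38 had the lowest level of both mitotic genes used below. It had the lowest value for 3 of the 28 genes (10.7%), against 3.25% of all tested probe sets. It had the highest value for 3 (10.7%), against 4.57%. Tmem97 and Vldlr, listed for their rise with mitotic genes, are among the 3 lowest.

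Levels were expressed as log2(intensity + 16), and differences between animals on this scale understate those of dim probe sets. Levels of different probe sets were not compared with each other. Between the lowest and the highest of the 43 animals, the intensity of a gene differed from 1.75-fold for Sc5d to 3.29-fold for Idi1, with a median of 2.19-fold over the 28 genes. The SD over animals had a median of 0.217, against 0.233 for all tested probe sets. Set against the 200 probe sets closest in brightness, the SD was above the median for 15 of the 28 genes, above the 90th percentile for 0 and below the 10th percentile for 1, Nsdhl. The median percentile of the 28 genes was 52.8.

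Of the 7 enzymes up to farnesyl diphosphate, 5 passed the filter. Idi1, which interconverts isopentenyl and dimethylallyl diphosphate, had a lowest value of 7.54, a median of 8.27 and a highest of 9.17. Its SD of 0.36 was at percentile 85.5 of its neighbours in brightness. Fdps, which makes farnesyl diphosphate, ranged from 10.12 to 10.95 around a median of 10.55. Acat2, the cytosolic thiolase, ranged from 7.28 to 8.38 (median 7.75), Mvk, mevalonate kinase, from 7.48 to 8.84 (median 8.41) and Pmvk, phosphomevalonate kinase, from 9.15 to 9.98. The lowest Mvk value came from animal 43, and the next was 8.06.

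Of the 11 enzymes from squalene to cholesterol, 10 passed. Sqle, the squalene epoxidase and a rate-limiting step, ranged from 8.05 to 9.11 (median 8.54) with an SD of 0.25. Lss, which closes lanosterol from oxidosqualene, ranged from 8.27 to 9.71 (median 9.31), and its SD of 0.22 became 0.16 without animal 43. Cyp51, the lanosterol demethylase, ranged from 10.21 to 11.08 (median 10.63), with its lowest value in animal 38. Msmo1, which removes the methyl groups at carbon C4, ranged from 9.04 to 10.17, and Nsdhl, its partner in that step, from 8.41 to 9.20. Nsdhl was the steadiest of the 28 genes for its brightness, with an SD of 0.16 at percentile 4. Sc5d, which introduces a double bond into the sterol ring, had the smallest SD, 0.15.

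All 5 sensing genes passed. Insig1 ranged from 9.08 to 10.16 (median 9.55) and Insig2 from 9.71 to 10.84 (median 10.22), the latter with its highest value in animal 43. Scap ranged from 8.71 to 10.07 (median 9.56), with its lowest value in animal 43. Srebf1, the gene of the SREBP form tied mainly to fatty acid synthesis, had the largest SD of the 28 genes, 0.36, at percentile 90 of its neighbours, and ranged from 7.37 to 8.91. Srebf2, the gene of the form tied mainly to cholesterol, had an SD of 0.21 and ranged from 9.06 to 10.07.

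Tmem97, a membrane protein of the endoplasmic reticulum that binds sterols and is also known as the sigma-2 receptor, ranged from 10.34 to 11.57 (median 11.10). The lowest value was that of animal 38, and the next was 10.84. Vldlr, a receptor for very low density lipoprotein, ranged from 9.12 to 10.11 (median 9.76), again lowest in animal 38, with 9.51 as the next value. Soat1, which esterifies cholesterol for storage, went the other way in that animal, which had its highest value, 9.51, against a median of 8.87 and a lowest of 8.21. Abcg1, a sterol exporter, and Nr1h2, a liver X receptor, were also highest in animal 38, at 11.00 and 9.37. Fasn, the fatty acid synthase, ranged from 10.30 to 11.44, and its SD fell from 0.19 to 0.13 without animal 43. Scd, which puts the double bond into stearic acid, was near background with a median intensity of 27.2.

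**Figure D1:**
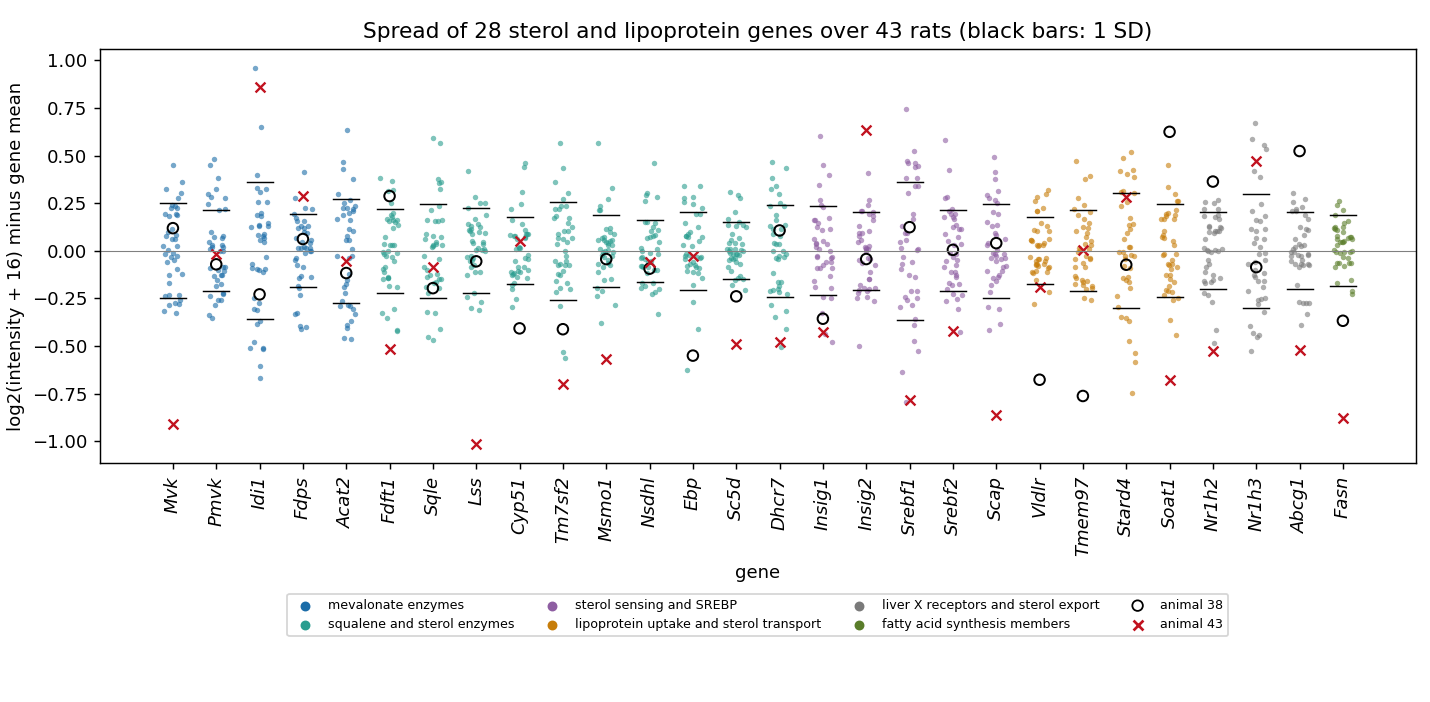
Difference of each animal from the gene's mean, in log2(intensity + 16), for the 28 genes that passed the filter, coloured by role, with 1 point per animal and bars at 1 SD above and below the mean. Open circles mark animal 38, lowest for Tmem97, Vldlr and Cyp51 and highest for Soat1, and crosses mark animal 43, lowest for 11 genes.

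The second question was how these genes moved with Mki67, the proliferation antigen of cycling cells, and Top2a, the topoisomerase that untangles chromosomes at division. Mki67 ranged from 7.34 to 9.65 (median 8.98) and Top2a from 7.47 to 9.11 (median 8.32), both with an SD of 0.38. The mean of the centred levels of both genes served as the mitotic reference. It was −1.27 in animal 38, −0.49 in the next animal and 0.62 at the highest. A slope below is the change of a gene in log2 units for each log2 unit of the reference, fitted with limma over all tested probe sets with Benjamini-Hochberg adjustment.

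Tmem97 had a slope of 0.42 ± 0.07 (SE, n = 43), with Pearson's r of 0.679. Its second probe set had a slope of 0.49 ± 0.09 and correlated with the first at r = 0.83. Vldlr had a slope of 0.32 ± 0.07 (r = 0.618), but its other 3 probe sets had slopes of 0.15 ± 0.09, 0.14 ± 0.10 and 0.01 ± 0.10. The slope of Vldlr thus differed widely between its probe sets. Without animal 38 the slope was 0.33 ± 0.09 for Tmem97 and 0.21 ± 0.08 for Vldlr. No test is given for these genes, which were listed for this relation.

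Of the 26 other genes, 1 passed an adjusted p of 0.05 (3.85%), against 5.06% of the 15518 probe sets tested. It was higher with the reference, as were 2.8% of all probe sets, and 0 of the 26 were lower, against 2.26%. This was Cyp51, with a slope of 0.26 ± 0.07 (limma adjusted p = 0.0296, r = 0.50). Its second probe set had a slope of 0.22 ± 0.09 (limma adjusted p = 0.149). Without animal 38, the lowest for Cyp51 and for the reference, the slope was 0.22 ± 0.09 (limma adjusted p = 0.187), and 0 of 27 genes passed, 1 more having passed the filter. In that fit only 60 of 15518 probe sets were called (0.387%), against 785 with all animals. At an unadjusted p under 0.05, 6 of the 26 genes stood with all animals (23.1%, against 20.9% of all probe sets) and 4 of the 27 without animal 38 (14.8%, against 16.9%). With a step between animals 22 and 23 as a term in the fit, the slope of Cyp51 was 0.19 (limma adjusted p = 0.330). In that fit 97 probe sets were called (0.625%) and 0 of the 26 genes passed. The step parts the animals into groups of the same sizes as the 22 heavy and 21 light glands. No label ties animal number to weight class, so weight class and the step cannot be told apart. With a trend over animal number as a term, 159 probe sets were called (1.02%), again with 0 of the 26 genes. The unadjusted shares depended on these terms: 7 of the 26 genes stood with the step (26.9%, against 10.8% of all probe sets) and 9 with the trend (34.6%, against 13.1%).

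Insig1 had a slope of 0.29 ± 0.10 (limma adjusted p = 0.0653), Fasn of 0.22 ± 0.08 (limma adjusted p = 0.0894) and Soat1 of −0.31 ± 0.10 (limma adjusted p = 0.0585). None of these passed, although Insig1 passed under 3 and Soat1 under 5 of the alternative settings. The second probe set had a slope of 0.21 ± 0.09 for Fasn (limma adjusted p = 0.139) and of −0.22 ± 0.15 for Soat1 (limma adjusted p = 0.417). Of the 10 enzymes from squalene onward, 8 had slopes above 0, with a median of 0.14. The 5 enzymes before squalene had a median slope of 0.01, among them Fdps at −0.09 ± 0.09 (limma adjusted p = 0.613). This gap in medians depended on the fit: with the step between animals 22 and 23 as a term the medians were 0.13 before squalene and 0.16 from squalene onward, and with the trend 0.11 and 0.19. Abcg1 had a slope of −0.18 ± 0.09 (limma adjusted p = 0.244) and Insig2 of −0.17 ± 0.09 (limma adjusted p = 0.290). Other probe sets of Abcg1 had slopes of −0.26 ± 0.10 and −0.47 ± 0.19 (limma adjusted p = 0.123 and 0.140). For Insig2 the second probe set had a slope of −0.003 ± 0.109 (limma adjusted p = 0.993). Ebp, a sterol isomerase, had a slope of −0.01 ± 0.09 with all animals and of −0.24 ± 0.10 without animal 38 (limma adjusted p = 0.219 without it).

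The choice of mitotic gene moved the values. With Mki67 alone the slopes were 0.41 for Tmem97, 0.34 for Vldlr, 0.28 for Cyp51 (limma adjusted p = 0.00323) and −0.35 for Soat1 (limma adjusted p = 0.00892). With Top2a alone they were 0.28, 0.18, 0.14 (limma adjusted p = 0.293) and −0.15 (limma adjusted p = 0.411) for the same genes in that order. With Mki67 alone 2 of the 26 genes passed (7.69%), against 6.09% of all probe sets, and 6 stood without adjustment (23.1%, against 21.8%). With Top2a alone 0 of the 26 genes passed, against 0.87% of all probe sets, and 8 stood without adjustment (30.8%, against 17.9%). Animal 38 was lowest for Mki67 at 7.34, with 8.40 as the next value, and for Top2a at 7.47, with 7.86 as the next. Neither gene alone was tried without animal 38. Whether the slopes on the 2 genes differ was not tested.

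**Figure D2:**
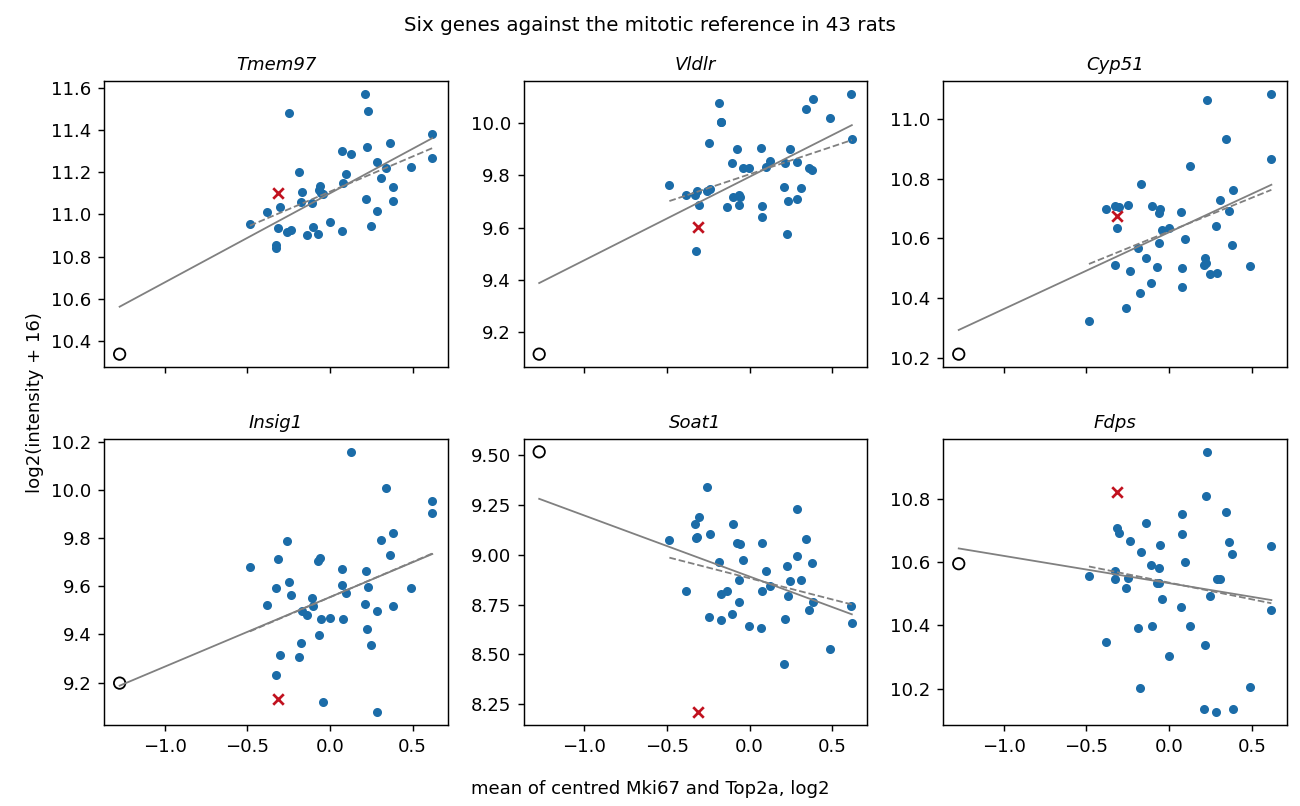
Level of 6 genes, in log2(intensity + 16), against the mitotic reference (mean of centred Mki67 and Top2a, log2), with 1 point per animal, an open circle for animal 38 and a cross for animal 43. Solid lines are fits over 43 animals and dashed lines fits without animal 38, which lies at −1.27, far from the next animal at −0.49; Fdps is shown as a gene with a slope near 0.

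Other genes of lipid metabolism were read from lists, against 5.06% of all probe sets called (2.8% higher and 2.26% lower). Of 9 tested fatty acid synthesis genes, 1 rose with the mitotic reference, Fads1, a fatty acid desaturase, with a slope of 0.52 ± 0.15 (limma adjusted p = 0.0299). Of 11 tested genes of side branches and control of the sterol pathway, 1 fell, Pgrmc1, a haem-binding partner of Tmem97 and of sterol enzymes, with a slope of −0.19 ± 0.05 (limma adjusted p = 0.0347). Of 11 tested sterol and lipoprotein transport genes, 1 fell, Npc2, which hands cholesterol out of the lysosome, with a slope of −0.43 ± 0.11 (limma adjusted p = 0.0197). None of these 3 lists held a call without animal 38, when 0.387% of all probe sets were called.

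Proliferation genes and markers of other pituitary cells were related to the mitotic reference too, again against 2.8% of all probe sets called higher and 2.26% lower. In the proliferation list 10 of 15 tested genes rose, and 4 of 15 without animal 38. Lower with the reference were 1 of 5 lactotroph genes (Agtr1b, an angiotensin receptor), 2 of 5 gonadotroph genes (Fshb and Cga), 1 of 2 thyrotroph genes (Tshb) and 2 of 3 erythroid genes (Hbb and Alas2). No gene passed among the somatotroph, corticotroph and melanotroph, folliculostellate, endothelial, macrophage, fibroblast or neural markers tested, and without animal 38, when 0.387% of all probe sets were called, no cell type list held a call. The median slopes stayed about as large without that animal, at −0.87 (from −0.95) for the thyrotroph list, −0.92 (from −0.89) for the erythroid list and −0.57 (from −0.51) for the gonadotroph list. The part of these cells in the slopes of the sterol genes was not tested.

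The third question was whether the pathway moved as 1 unit. Sqle was taken as the sterol reference, because Hmgcs1, chosen first, has no named probe set. Of the other 27 genes, 0 passed in limma (adjusted p under 0.05), and of all 15520 probe sets tested 1 passed (0.00644%), that of Itga6, which encodes part of a laminin receptor (slope 0.77 ± 0.14, limma adjusted p = 0.0476). Permutation tests of r and of rho called 0 of the 27 genes and 0 of all 15520 probe sets. At an unadjusted p under 0.05, 6 of the 27 genes stood in limma (22.2%), against 8.65% of all probe sets, and all 6 had slopes above 0. With quantile normalization it was 3 of 27 (11.1%, against 7.01%). With array quality, the trend over animal number, or Mki67 and Top2a as terms it was 4 of 27 (14.8%). The shares of all probe sets in these fits were 6.59%, 7.36% and 9.64%, in that order. The 6 genes were Idi1 at 0.56 ± 0.20, Acat2 at 0.38 ± 0.16, Insig1 at 0.37 ± 0.14, Fdft1, the squalene synthase, at 0.30 ± 0.13, Lss at 0.29 ± 0.13 and Msmo1 at 0.24 ± 0.12. Their adjusted p lay between 0.474 and 0.556, so none of these slopes achieved significance.

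Tmem97 and Vldlr had slopes on Sqle of 0.01 ± 0.13 and 0.02 ± 0.11 (limma adjusted p = 0.988 and 0.971). The other probe sets of Vldlr had slopes of −0.25 ± 0.12, 0.12 ± 0.14 and 0.03 ± 0.14 (limma adjusted p = 0.577, 0.842 and 0.972). Cyp51 had a slope of 0.11 ± 0.11 (limma adjusted p = 0.813). Sqle itself had a slope of 0.22 ± 0.11 on the mitotic reference (limma adjusted p = 0.208). With the mean of the other sterol enzymes in place of Sqle, each enzyme being left out of the mean it was tested against, 1 of 28 genes passed, against 0.251% of all probe sets: Msmo1, with a slope of 1.21 ± 0.25 (limma adjusted p = 0.0206). At an unadjusted p under 0.05, 10 of these 28 genes stood (35.7%, against 15.1%), all with slopes above 0. With Insig1, a gene that SREBP switches on, as the reference, 0 of 27 genes and 0 of all 15520 probe sets passed. Without adjustment 11 of the 27 stood (40.7%, against 14.9%), 10 with slopes above 0 and 1, Abcg1, below 0.

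By moderated t, the 10 genes outside the list most like Sqle over the 43 animals were Itga6, Xrn2, Prp2l1, Vcp, Fam149a, Fgf12, Ankrd13c, Hdac2, Gpc1 and Peli1. The 5 most opposed were Fkbp2, Tmem37, Plekhf1, Qrich1 and N4bp2l1. All but Itga6 had an adjusted p of 0.209 in limma. None of the tested genes of the fatty acid, side branch, transport, proliferation and cell type lists passed against Sqle, nor did any other probe set but that of Itga6.

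**Figure D3:**
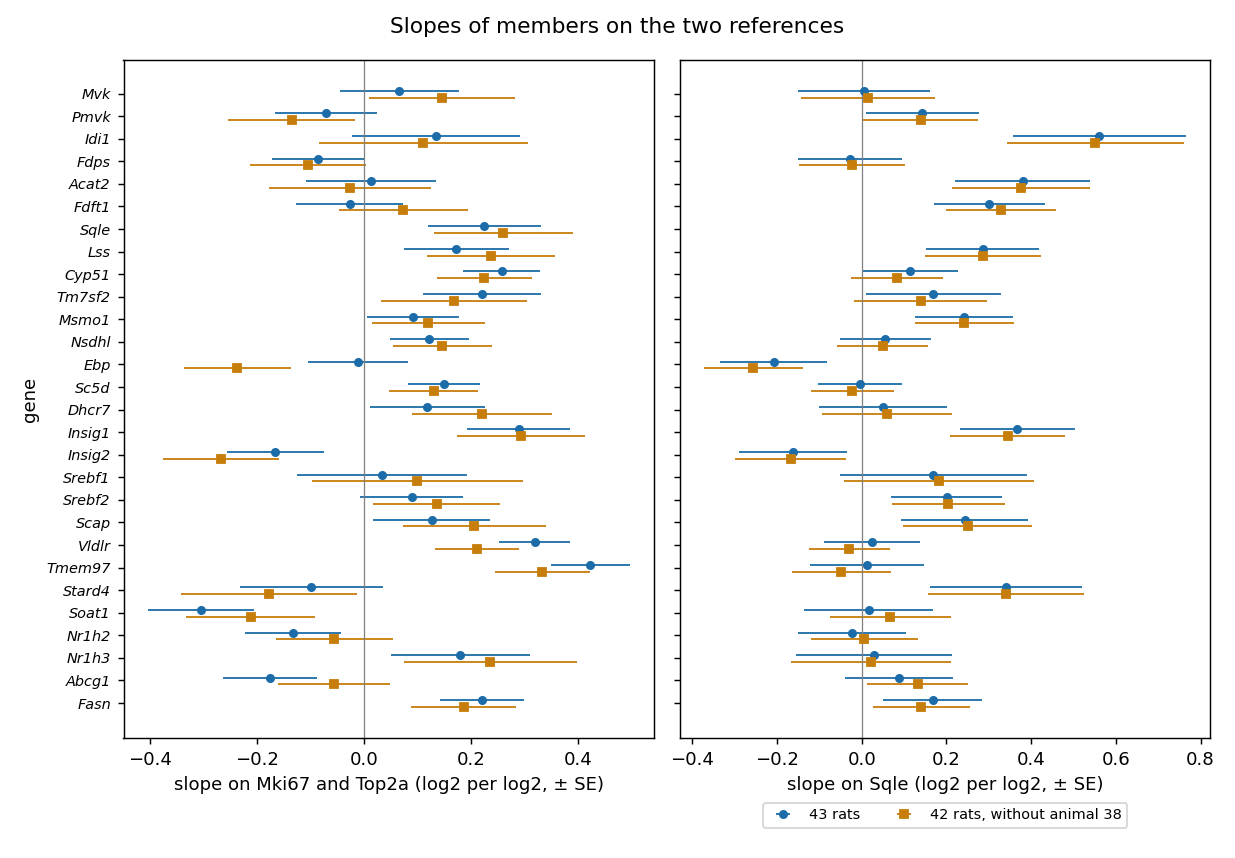
Slope of each gene, in log2 per log2 with its SE, on the mitotic reference (left) and on Sqle (right), with circles for 43 animals and squares for 42 animals without animal 38. Tmem97 (0.42) and Vldlr (0.32) have the highest slopes on the left, for which they were listed, and slopes near 0 on the right. Idi1 is highest on the right at 0.56, and Sqle has no slope on itself.

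Between the 28 genes there were 378 pairs, with a median r of 0.07 over animals, against 0.01 for all pairs of tested probe sets. Of these pairs 63.8% had r above 0, against 51.3% of all pairs. Without animals 38 and 43 the median r was 0.04 and 56.9% had r above 0, against 0.0020 and 50.4% for all pairs. An r beyond 0.5 in size was found for 19 pairs (5.03%), against 4.18%, and for 8 pairs (2.12%, against 1.74%) without these animals. Pairs share arrays and their signal, so these values are a description without a test. The 15 enzymes gave 105 pairs with a median r of 0.10, and 4 of them exceeded 0.5 (3.81%, against 4.18% of all pairs). No summary of the enzyme pairs was made without animals 38 and 43.

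The closest pairs were Lss with Fasn (r = 0.763, rho = 0.570) and Scap with Fasn (r = 0.687, rho = 0.524). Both were smaller without animals 38 and 43, at 0.534 for Lss with Fasn and 0.582 for Scap with Fasn. Cyp51 went with Tmem97 (r = 0.560, 0.464 without these animals), and Idi1 with Acat2 (r = 0.506, 0.555 without them). Vldlr and Tmem97 had r = 0.525, and 0.292 without these animals. Both genes were listed for their rise with mitotic genes in these same arrays, so their r is a description only.

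The most opposed pairs were Insig2 with Scap, the anchor and the carrier of SREBP (r = −0.732, rho = −0.678), and Tmem97 with Soat1 (r = −0.622, rho = −0.591). Without animals 38 and 43 they had r of −0.639 and −0.600. Another Scap probe set that passed had r of only 0.14 with the one read here. The liver X receptor genes Nr1h2 and Nr1h3 had r = −0.540, and −0.509 without them.

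Different probe sets of a gene did not always vary alike. Among 17 pairs of a brightest probe set and another one of the gene that passed, 6 had r above 0.5, and the median was 0.353. Tmem97 (0.83), Fasn (0.80) and Insig2 (0.68) were the closest. For Cyp51 r was 0.29, for Scap 0.14 and for Nsdhl 0.13. For the 3 other probe sets of Vldlr it was 0.45, 0.52 and −0.06. The pairs with Scap given above thus rest on its brightest probe set alone.

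**Figure D4:**
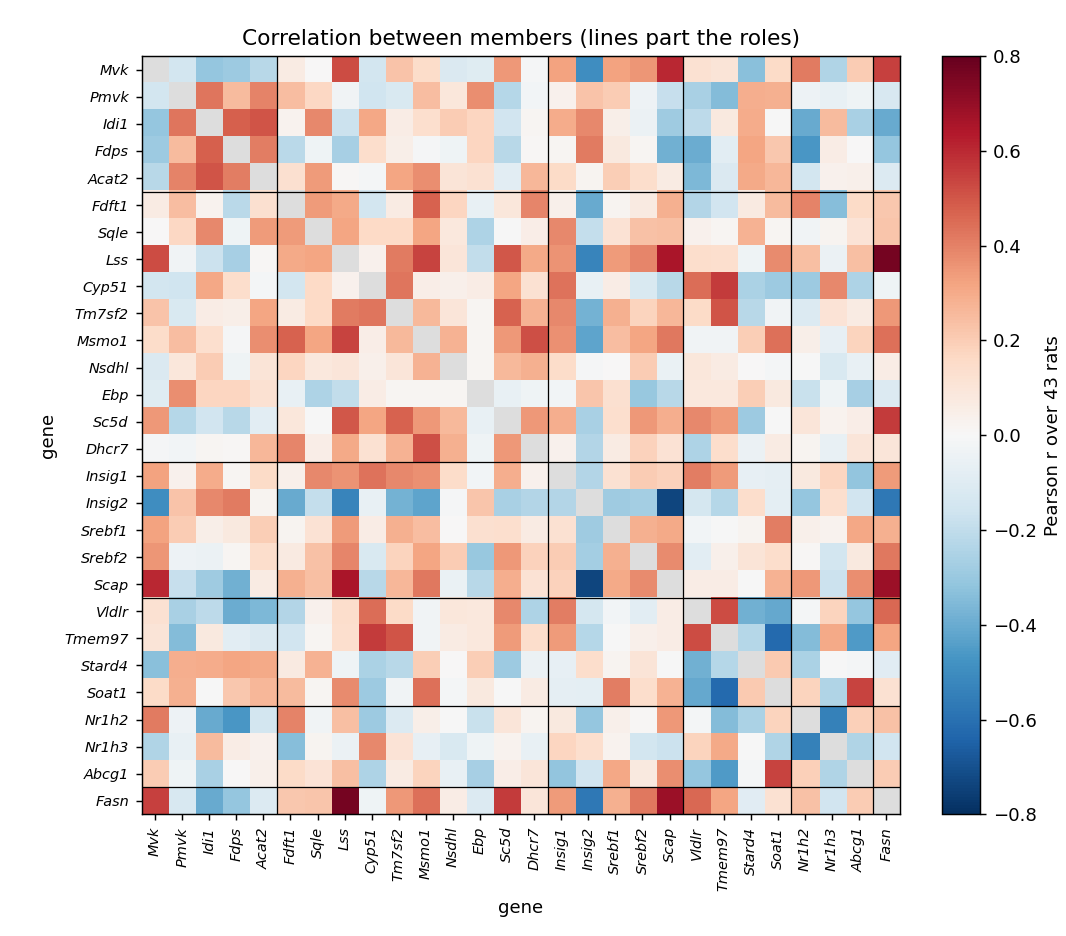
Pearson's r over 43 animals for each pair of the 28 genes, from −0.8 (blue) to 0.8 (red), with lines between roles and grey on the diagonal. Lss, Scap and Fasn form the darkest red cells, and Insig2 with Scap (−0.732) and Tmem97 with Soat1 (−0.622) the darkest blue ones.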

How the data were processed

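Total RNA of 43 anterior pituitary glands was hybridised to 1 single-colour array each. The authors deposited 1 linear intensity per probe set and array, already scaled: trimmed by 2% at either end, array means were 500.17 to 500.22. The software that made them: not given in the sources used here. Precision is limited by the number of arrays. Of 31099 probe sets, 57 were controls, and 20826 others carry 1 gene symbol in the platform annotation.

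The pseudocount of 16 was added before log2, and probe sets with a mean above the median of 7.16 were kept (15521). Slopes were fitted with limma 3.58.1 in R 4.3.3 (lmFit and eBayes), 2-sided, with Benjamini-Hochberg adjustment over all tested probe sets and a threshold of 0.05. Probe sets of the reference genes were left out of the responses, except with the mean of the sterol enzymes as the reference, where each enzyme was tested against the mean of the others. All 43 arrays were used unless 2 normal components beat 1 by a Bayesian information criterion of more than 10. Neither the mitotic reference nor Sqle reached this, and the alternative references were not checked. Permutation tests used 100000 permutations. The fit was tested on simulated data. Named genes are the listed ones, those passing in the pathway and marker lists, and the 10 highest and 5 lowest by moderated t against Sqle. Genes compared in depth were picked from the list after their values were seen. Members and lists were chosen with earlier results of these data known. Alternatives covered normalization, pseudocount, filter, probe set choice, left-out arrays, animal number, array quality, test and reference. Promoters are RefSeq windows of GRCr8, and the array values name no build.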

Additional observations from a re-analysis of the deposited data

How the results depend on the processing

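The count of genes related to Mki67 and Top2a was 1 of 26, against 5.06% of all probe sets called. Percentages in brackets below are shares of all probe sets called in the same fit. The count became 2 with quantile normalization (4.43%), array medians subtracted (5.19%), without animal 43 (5.1%) and with array quality as terms (6.9%). Mki67 alone (6.09%) and the stricter filter (of 12, 9.77%) also gave 2. So did probe sets averaged (of 23, 3.17%) and Sqle as a term (of 25, 5.54%). The count became 0 without animal 38 (of 27, 0.387%), without animals 38 and 43 (of 27, 0.516%) and with no filter (of 30, 1.15%). A step between animals 22 and 23 (0.625%) or a trend over animal number (1.02%) as a term gave 0 too. So did the permutation test of rho (1.62%) and Top2a alone (0.87%). The count was also 0 without the 2 animals farthest from the median of the reference (38 and 22), when 0.116% were called. This setting was chosen after seeing the data. The pseudocounts 1 and 64 (4.96% and 5.36%) and the permutation test of r (4.32%) left the count at 1. Cyp51 kept a slope above 0 in 19 of 19 alternatives and passed in 11 of them, with adjusted p from 0.00323 to 0.330. The count related to Sqle was 0 in every alternative but the mean of the other sterol enzymes, where it was 1 (of 28). The share of all probe sets called was 0.251% with that mean and at most 0.0322% in the other alternatives. The number of genes with an SD above the median of their neighbours was 9 of 25 with probe sets averaged and 13 to 16 of 28 in the others. The cause was not tested in any of these. Among values of single genes, 9 gained and 8 lost the threshold. The sign of a slope turned in 31 of 514 values against Mki67 and Top2a (8 genes) and in 47 of 496 against Sqle (13 genes), none of which passed the threshold before or after. Mvk turned from 0.07 to −0.06 and Pmvk from −0.07 to 0.13 with the step, Fdps from −0.09 to 0.07 with the trend, and Fdft1 from −0.03 to 0.07 without animal 38. Sqle replaced Hmgcs1 as the reference after the data were seen. The weight class of the animals, genotypes and any untreated gland were not analysed here. No paired analysis was possible because all arrays form 1 group.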
